A study of Mus musculus with 4 samples.

Results

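The comparison described here sets both single-knockout arrays against the remaining pair of a 4-genotype design. For every gene, the mean log2 intensity of the Bmi1ΔIEC and Mel18ΔIEC arrays was taken, and the mean of the wild-type (WT) and double-knockout (DKO, Bmi1ΔIEC Mel18ΔIEC) arrays was subtracted. This pair difference is the interaction contrast of the 2 x 2 design, so a gene far from 0 with separate pairs differs one way between wild type and either single loss and the other way between a single loss and the double loss. All 4 arrays of the series enter it, 2 arrays a side. It was computed for 18193 genes, each read from a probe set with 1 gene symbol (34945 of the 45037 probe sets on the array), and 11847 of these genes reached the floor of 33.4 intensity units, the median of all values, in at least 1 pair mean.

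Colonic epithelial cells came from C57BL/6 mice of 6 to 8 weeks, matched for sex, in a model of colitis-associated colorectal cancer. All 4 genotypes, wild type included, had received azoxymethane, a carcinogen, at 10 mg/kg and, from day 5, dextran sulfate sodium, which injures the colonic lining, at 3.5% in the drinking water for 5 days, and cells were taken on day 12. ΔIEC marks loss in the intestinal epithelium, and the sources used here do not give the promoter that drives the deletion. Cells were released from the opened colon with EDTA with no sorting step, and 200 ng of total RNA was labelled for each Affymetrix Mouse430_2 array. One array was hybridised for each genotype, and how many mice it represents is not stated. The design text puts (1) after DKO, (3) after Bmi1ΔIEC, (2) after Mel18ΔIEC and (4) after WT and leaves these numbers unexplained. There is therefore no replicate of any genotype and no test. The 2 arrays of a pair are different genotypes, so the spread inside a pair is given beside each difference as a description and not as an error.

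Bmi1 and Mel18 (gene symbol Pcgf2) are alternative PCGF subunits of Polycomb repressive complex 1, which ubiquitinates histone H2A and silences developmental genes and the Cdkn2a locus. Because the paralogs can substitute for one another, loss of one may leave the complex partly working while loss of both may not, and a 2 x 2 design separates effects that add up from effects that do not. Epithelium recovering from colitis is known to raise antimicrobial lectins, chemokines, acute-phase proteins and wound keratins, and to lower genes of detoxification, ion transport and lipid oxidation.

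The targeted genes do not check the labels. The brighter of the Bmi1 probe sets read 116 in WT, 334 in Bmi1ΔIEC, 159.6 in Mel18ΔIEC and 432 in DKO, so it was higher on the arrays labelled as lacking Bmi1, and where the probes lie relative to the deleted part is not given. Pcgf2 read 30.2 in WT, 33.4 in Bmi1ΔIEC, 39.8 in Mel18ΔIEC and 31.96 in DKO, close to the floor throughout. For this reason a genotype name stands for the label of its array, and the values named WT, Bmi1ΔIEC, Mel18ΔIEC and DKO are intensities on those arrays. The epithelial markers Epcam, Cdh1, Krt8, Krt18 and Cdx2 had pair differences between -0.11 and 0.05. Vil1, which encodes villin of the brush border, was not called at -0.57, with separate pairs, and Krt20, a keratin of mature surface colonocytes, was lower on both single-knockout arrays by the size rule given next (-1.15). Of the defining markers of other cells, Ptprc, the leukocyte antigen CD45, was lower as well (-1.10), Pecam1 lay under the floor on every array, and Col1a1 and Myh11 did not pass. Xist, transcribed from the inactive X, read 122 in WT, 45.5 in Bmi1ΔIEC, 54.2 in Mel18ΔIEC and 611 in DKO, a pair difference of -2.46, while the Y-linked Eif2s3y read 246 in WT, 282 in Bmi1ΔIEC, 198 in Mel18ΔIEC and 229 in DKO. The part of sex in the pair differences was not tested. Array medians ran from 32.1 to 34.2, and the 75th percentiles were 143 and 138 on the Bmi1ΔIEC and Mel18ΔIEC arrays against 133 and 132 on the others.

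The genes lower on both single-knockout arrays included antibacterial lectins, neutrophil-attracting chemokines, antiviral genes and genes of neutrophils, mast cells and macrophages. Wild type and double knockout read within 2-fold of each other for 80.3% of the lower genes. That is a smaller share than over all genes at or above the floor, of which 4.14% were 2-fold apart. The higher genes included enzymes of detoxification and steroid metabolism, carriers of short-chain fatty acids and some genes of crypt stem cells. How many of each group were called is given with the group. Genes were called where the pair means were at least 2-fold apart, the pairs did not overlap and the higher pair mean reached the floor. By this size rule 447 genes were higher on both single-knockout arrays, 3.77% of the genes that reached the floor, and 274 were lower, 2.31%. Together they were 6.09% of those genes. The median pair difference over all genes at or above the floor was 0.11, and the 5th and 95th percentiles were -0.71 and 0.92. The arrays labelled Bmi1ΔIEC and Mel18ΔIEC lay close to each other, with a median absolute difference of 0.16 and 1.28% of genes 2-fold apart. Wild type and double knockout were 0.20 apart at the median, with 4.14% of genes 2-fold apart, and the 2 pair means were 0.29 apart, with 6.37% of genes 2-fold apart. Of the 755 genes in this last group, 34 had pairs that overlapped and were not called.

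The number and the balance of calls depend on single arrays and on scaling. Without the wild-type array 675 genes were higher and 444 lower, and without the Mel18-labelled array 695 and 354. Without the Bmi1-labelled array the counts were 353 and 281, and without the double-knockout array 461 and 282. Of the called genes, 168 higher (37.6%) and 131 lower (47.8%) kept their call whichever array was left out. Higher calls were 62.0% of all calls as deposited, 71.9% with each array centred on its median and 31.8% with each array centred on its genes at or above the floor, a scaling that moves the median of the tested genes to -0.10. Whether more genes were higher or lower therefore has no fixed answer, and list medians below are to be read against 0.11.

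**Figure D1:**
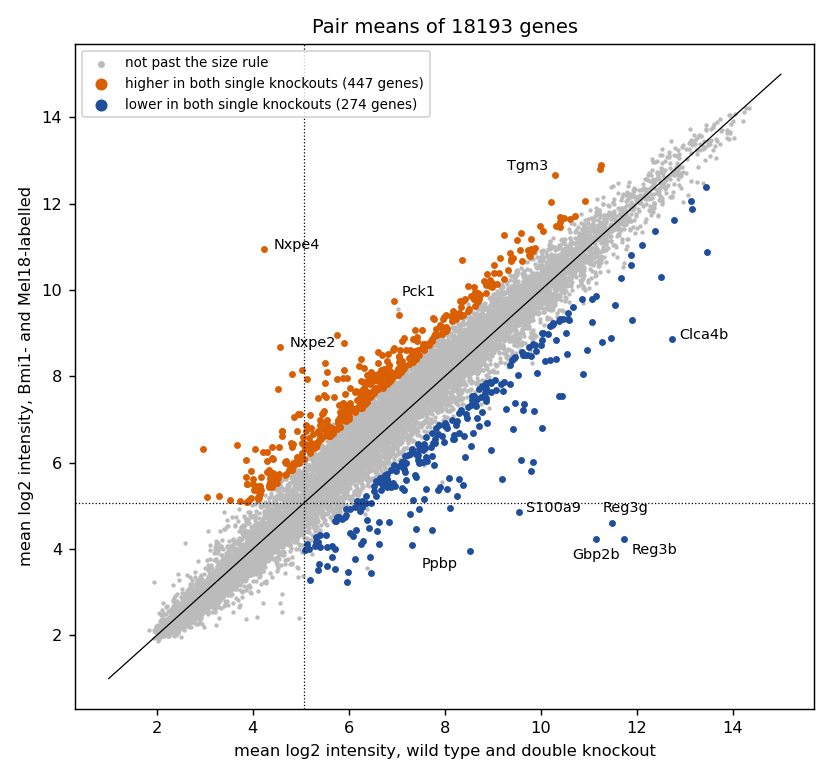
Each point is 1 of 18193 genes, with the mean log2 intensity of the wild-type and double-knockout arrays on the x axis and that of the Bmi1ΔIEC and Mel18ΔIEC arrays on the y axis. The diagonal marks equal pair means and the dotted lines the floor of 33.4 intensity units. The 447 genes called higher and the 274 called lower lie off the diagonal, and Reg3b, Reg3g and Gbp2b lie farthest below it and Nxpe4 farthest above it.

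The pattern inside the pairs differed from gene to gene. In 179 of the higher genes (40.04%) and 100 of the lower genes (36.5%) both pairs were within 0.5 on the log2 scale. In these genes wild type and double knockout read alike, as did the single knockouts. The share of all genes with such pairs was not computed. Over all genes at or above the floor the single knockouts were 0.16 apart at the median, against 0.29 among higher and 0.36 among lower genes. Wild type and double knockout were 0.20 apart, against 0.49 and 0.44. The wild-type and double-knockout arrays were within 2-fold of each other for 370 of the higher genes (82.8%) and 220 of the lower (80.3%). Over all genes at or above the floor 4.14% had these arrays 2-fold apart. The double-knockout array lay at least 2-fold beyond wild type, away from the single knockouts, for 64 higher and 39 lower genes, and wild type lay beyond the double knockout for 13 and 15. The Bmi1-labelled array lay farther from the opposite pair than the Mel18-labelled array for 334 of the higher genes (74.7%) and 187 of the lower (68.2%). The same share over all genes was not computed. The closest arrays of the pairs were themselves 2-fold apart for 125 higher genes (1.06% of the genes that reached the floor) and 106 lower genes (0.895%).

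**Figure D2:**
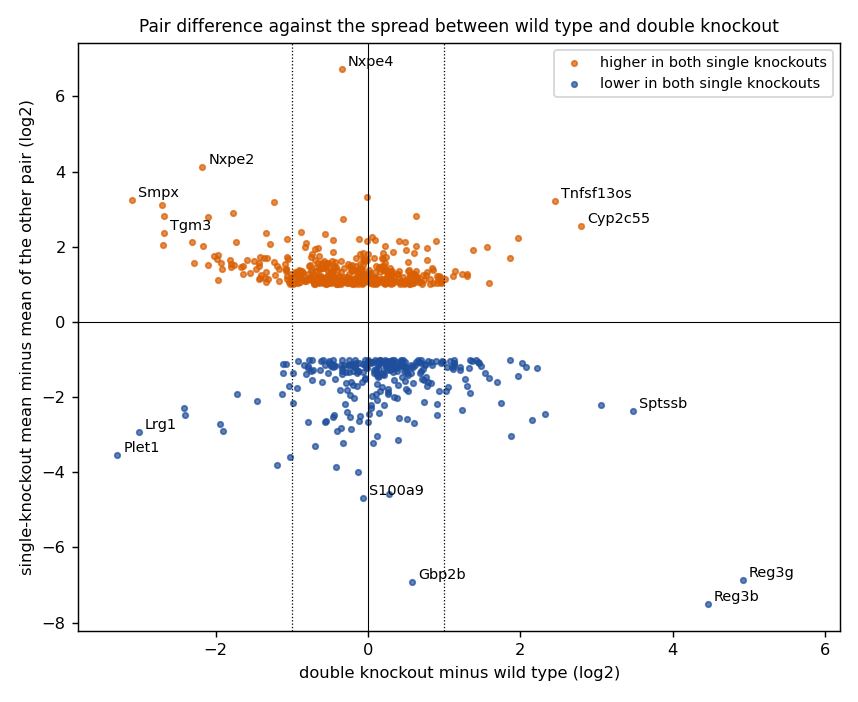
Each point is 1 of the 721 called genes, with double knockout minus wild type on the x axis and the pair difference on the y axis, both on the log2 scale. Dotted lines mark a 2-fold difference between wild type and double knockout. Between those lines sit 370 higher and 220 lower genes, while Reg3b, Reg3g and Sptssb sit far to the right (double knockout above wild type), and Plet1 and Lrg1 sit far to the left.

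Secreted antibacterial lectins and an interferon-induced GTPase gave the largest differences of all. Reg3b, a C-type lectin that kills bacteria at the mucosal surface, read 731 in WT, 19.1 in Bmi1ΔIEC, 18.6 in Mel18ΔIEC and 16063 in DKO. Its close relative Reg3g read 523 in WT, 20.8 in Bmi1ΔIEC, 28.8 in Mel18ΔIEC and 15800.4 in DKO, and Gbp2b, a guanylate-binding protein of cell-autonomous defence, read 1866 in WT, 14.4 in Bmi1ΔIEC, 24.3 in Mel18ΔIEC and 2787 in DKO. The single-knockout values of all 3 genes lie under the floor while the other pair is far above it. The pair differences were -7.51, -6.88 and -6.93, and against the floor instead of the low readings the genes were still lower by 103-fold, 86.2-fold and 68.4-fold. For the lectins the double-knockout array was also far above wild type, by 4.46 and 4.92 on the log2 scale, whereas Gbp2b differed between them by 0.58. Reg3b and Reg3g are related neighbouring genes, and their probe sets may share signal. The remaining Reg gene above the floor, Reg4, was not called (0.87) and is given only to complete the family, with its value known.

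Socs3, the feedback inhibitor of the IL-6 and STAT3 pathway that induces Reg3 genes, was the only called gene of 15 members of that pathway at or above the floor. It read 979 in WT, 436 in Bmi1ΔIEC, 479 in Mel18ΔIEC and 1652 in DKO, a pair difference of -1.48. The list's median was -0.52, and it ran from -0.62 to -0.31 when single arrays were left out. Acute-phase proteins, secreted under the same cytokines, had 5 of 10 members lower and none higher (median -0.71, or -0.46 without wild type). This median depends on the floor. It was -0.16 over 18 genes with no floor and -0.16 over 7 genes with the floor at percentile 75. Saa3, a serum amyloid A made in inflamed gut, read 67.9 in Bmi1ΔIEC and 72.6 in Mel18ΔIEC against 786 in WT and 148 in DKO, and its difference of -2.28 was -1.08 without wild type. Serpina3n, a protease inhibitor, read 51.3 in Bmi1ΔIEC and 53.7 in Mel18ΔIEC against 145 in WT and 191 in DKO, and haptoglobin (Hp) differed by -2.14. Lrg1, a leucine-rich glycoprotein of inflamed vessels and epithelium, read 476 in WT, 13.1 in Bmi1ΔIEC, 37.2 in Mel18ΔIEC and 59.3 in DKO, so its pair difference of -2.93 came mainly from wild type. Without the wild-type array the Lrg1 difference was -1.43.

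The upstream windows of Reg3b and Socs3 are printed because both genes were called and hold a STAT-like motif, TTCNNNGAA, which reads the same on both strands. They are the 250 bases before the annotated start in RefSeq (GRCm38.p6), 5′ to 3′ on the gene's strand, with the match in capitals. The match begins at -129 in Reg3b (chr6:78370635-78370884, plus strand) and at -154 in Socs3 (chr11:117969367-117969616, minus strand).
Reg3b: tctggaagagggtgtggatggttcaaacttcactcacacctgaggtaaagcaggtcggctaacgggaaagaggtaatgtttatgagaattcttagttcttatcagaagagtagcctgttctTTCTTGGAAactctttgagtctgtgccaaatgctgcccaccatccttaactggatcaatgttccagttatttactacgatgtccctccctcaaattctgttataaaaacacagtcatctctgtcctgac
Socs3: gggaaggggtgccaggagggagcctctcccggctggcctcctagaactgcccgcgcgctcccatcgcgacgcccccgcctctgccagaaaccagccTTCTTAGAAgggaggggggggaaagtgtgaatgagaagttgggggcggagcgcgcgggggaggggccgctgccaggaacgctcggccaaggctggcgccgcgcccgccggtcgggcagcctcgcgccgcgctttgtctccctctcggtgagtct
Of all 32851 RefSeq promoters, 7.02% hold this motif. The share is 5.80% of the 12247 promoters of genes at or above the floor, from which called genes come. Among genes lower on both single-knockout arrays 8.24% of 255 promoters hold it, and among genes higher on them 4.60% of 457. Of genes with a promoter in the table, 1 of 12 in the IL-6 and STAT3 list, 1 of 8 acute-phase genes and 1 of 3 Reg genes hold it. In the lists of antiviral genes and interferon gamma targets, described below, 4 of 17 and 4 of 10 do. The shares are a description of letters in a window and say nothing about binding.

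Of 12 CXC chemokines, 4 were lower on both single-knockout arrays and none higher, with a median of -0.54. Cxcl2, a main neutrophil attractant, read 836 in WT, 46.5 in Bmi1ΔIEC, 51.8 in Mel18ΔIEC and 413 in DKO. Ppbp (CXCL7) read 19.2 in Bmi1ΔIEC and 12.5 in Mel18ΔIEC against 334 in WT and 405 in DKO, and Cxcl5, made by injured epithelium, read 20.3 in Bmi1ΔIEC and 86.9 in Mel18ΔIEC against 350.3 in WT and 202 in DKO. The pairs are separate for all 3, with differences of -3.58, -4.57 and -2.66. Cxcl16, a chemokine for T cells, was the remaining one (-1.30). Among CC chemokines only Ccl8 of 12 passed (-1.12), and it lost the call without wild type (-0.57) or without the Bmi1-labelled array (-0.96).

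Il1b, an inflammatory cytokine, read 1161 in WT, 96.2 in Bmi1ΔIEC, 129 in Mel18ΔIEC and 928 in DKO. Both pairs are tight around a pair difference of -3.22. Ptgs2, the inducible cyclooxygenase, read 14.98 in Bmi1ΔIEC and 20.2 in Mel18ΔIEC against 117 in WT and 84.96 in DKO, a difference of -2.52, and lost its call with the mean over all its probe sets (-1.35). Tnfaip2, a TNF-induced gene, read 39.9 in Bmi1ΔIEC and 44.7 in Mel18ΔIEC against 183 in WT and 211 in DKO and differed by -2.22, or by -1.18 with that mean. Tnf itself was only just past the rule at -1.04 and lay at -0.73 without wild type. These 3 were the called members among 16 genes of the TNF and NF-kB list, of which 13 had separate pairs in the lower direction, where 23.1% of all genes at or above the floor did. The list median was -0.54. Of 14 IL-1 family and inflammasome genes, Il1b, the IL-18 inhibitor Il18bp (-1.15) and the pore-forming Gsdmd (-1.05) were lower and the receptor Il1r1 was higher (1.12). Apart from Il1b these lie near the threshold, and each lost its call when 1 array was left out: Il18bp stood at -0.99 without wild type, Gsdmd at -0.96 and Il1r1 at 0.86 without the Bmi1-labelled array.

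The upstream windows of Cxcl2 and Ubd are shown because both genes were called and hold an NF-kB-like motif, GGGNNTTTCC, searched on both strands. Cxcl2 (chr5:90903649-90903898, plus strand) holds a pair of matches, at -97 and -78 from the annotated start, and Ubd (chr17:37193642-37193891, plus strand), which encodes a ubiquitin-like protein induced by TNF and interferon gamma, holds 1 at -15. Sequences are from RefSeq, GRCm38.p6, with matches in capitals.
Cxcl2: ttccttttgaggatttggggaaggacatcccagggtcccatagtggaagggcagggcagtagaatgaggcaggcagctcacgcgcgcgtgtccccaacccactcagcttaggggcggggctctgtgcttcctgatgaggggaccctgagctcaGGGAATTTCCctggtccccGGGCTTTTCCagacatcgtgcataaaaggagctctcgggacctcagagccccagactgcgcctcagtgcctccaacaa
Ubd: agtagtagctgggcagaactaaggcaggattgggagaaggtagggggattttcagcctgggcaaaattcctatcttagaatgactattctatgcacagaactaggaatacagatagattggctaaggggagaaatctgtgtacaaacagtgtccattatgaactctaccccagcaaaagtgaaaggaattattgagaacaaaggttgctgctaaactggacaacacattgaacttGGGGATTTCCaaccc
The motif occurs in 1.41% of all promoters and in 1.48% of those of genes at or above the floor. It occurs in 2.75% of those of genes lower on both single-knockout arrays and in 1.97% of those of genes higher on them. In the TNF and NF-kB list 5 of 12 genes with a promoter in the table hold it. So do 2 of 9 CXC chemokines, 2 of 8 acute-phase genes and 1 of 10 interferon gamma targets, the list of Ubd. No match was found in 17 antiviral, 12 IL-6 and STAT3, 5 MHC class II and 3 Reg genes.

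Type I interferon induces a set of antiviral genes. Of 24 antiviral genes at or above the floor, 9 were lower by the size rule and none was higher. Separate pairs in the lower direction were seen for 20 of them, and for 23.1% of all genes at or above the floor. Rsad2 (viperin), which makes a chain-terminating nucleotide, read 665 in Bmi1ΔIEC and 569 in Mel18ΔIEC against 2376 in WT and 1958 in DKO. Oas2, a sensor of double-stranded RNA, read 213 in Bmi1ΔIEC and 192 in Mel18ΔIEC against 767 in WT and 462 in DKO. Usp18, which removes ISG15 and damps the pathway, differed by -1.64 and Mx1, an antiviral GTPase, by -1.31, against -1.81 for Rsad2 and -1.56 for Oas2. The list median of -0.82 ran from -1.05 to -0.60 whichever array was left out.

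Of 9 MHC class II genes, 3 were lower, and for these the Mel18-labelled array read lowest. Ciita, the master switch of MHC class II genes, read 196 in WT, 76.7 in Bmi1ΔIEC, 22.5 in Mel18ΔIEC and 103 in DKO. The beta chain H2-Ab1 read 4882 in WT, 2599 in Bmi1ΔIEC, 906 in Mel18ΔIEC and 2907 in DKO. H2-Eb1, another class II beta chain gene, differed by -1.40. These are the 3 called genes, and the list's median was -1.06. Without the Mel18-labelled array none passed and the median was -0.38, whereas without the Bmi1-labelled array 7 passed and it was -2.05. Among guanylate-binding proteins, immunity-related GTPases and other targets of interferon gamma, 3 of 14 were lower, namely Gbp2b, Ido1 and Ubd. Ido1, which degrades tryptophan, was low on both single-knockout arrays, at 318 in Bmi1ΔIEC and 219.96 in Mel18ΔIEC against 2123 in WT and 1658 in DKO. Ubd read 2443 in WT, 1294 in Bmi1ΔIEC, 174 in Mel18ΔIEC and 3245 in DKO, so it was far lower on the Mel18-labelled array than on the Bmi1-labelled one. The median of this list was -0.86, -1.46 without the Bmi1-labelled array and -0.24 without the Mel18-labelled array. Of 13 class I and antigen-processing genes only their activator Nlrc5 passed (-1.12), and not without wild type (-0.59) or without the Mel18-labelled array (-0.92).

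Gbp2b and Rsad2 are shown with their upstream windows because both are called and hold the interferon-response motif GAAANNGAAA. It was searched on both strands, can share bases with TTCNNNGAA, and lies here on the reverse strand, so the capitals read TTTCNNTTTC. The matches begin at -137 in Gbp2b (chr3:142594597-142594846, plus strand) and at -120 in Rsad2 (chr12:26456453-26456702, minus strand), in RefSeq sequence of GRCm38.p6.
Gbp2b: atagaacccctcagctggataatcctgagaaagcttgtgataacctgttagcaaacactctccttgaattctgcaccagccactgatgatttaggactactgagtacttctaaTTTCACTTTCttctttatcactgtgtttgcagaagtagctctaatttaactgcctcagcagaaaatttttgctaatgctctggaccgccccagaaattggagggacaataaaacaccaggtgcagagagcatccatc
Rsad2: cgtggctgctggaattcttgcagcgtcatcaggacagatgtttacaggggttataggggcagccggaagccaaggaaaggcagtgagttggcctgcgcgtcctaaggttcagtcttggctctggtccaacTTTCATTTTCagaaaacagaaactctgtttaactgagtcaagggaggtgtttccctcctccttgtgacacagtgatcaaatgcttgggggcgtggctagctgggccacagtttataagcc
This motif was found in 2.98% of all promoters and in 2.57% of those of genes at or above the floor. It was found in 8.63% of the promoters of genes lower on both single-knockout arrays and in 1.75% of those of genes higher on them. In the antiviral list 7 of 17 genes with a promoter hold it, and in the list of interferon gamma targets 7 of 10. So do 2 of 9 CXC chemokines and 1 of 8 acute-phase genes. No match was found in 5 MHC class II, 12 TNF and NF-kB, 12 IL-6 and STAT3 and 3 Reg genes.

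Markers of immune cells were read on the same arrays, and fewer cells of a type and less of its RNA per cell cannot be told apart in such a preparation. Of 13 neutrophil genes at or above the floor, 8 were lower and none higher, with a median of -1.78 (-2.04 to -1.51 with single arrays left out). With no floor the median was -0.94 over 19 genes. S100a9, a calprotectin subunit stored in neutrophils, read 762 in WT, 15.95 in Bmi1ΔIEC, 52.7 in Mel18ΔIEC and 731 in DKO. S100a8, its partner, read 33.1 in Bmi1ΔIEC and 93.4 in Mel18ΔIEC against 935 in WT and 851 in DKO. Lactoferrin (Ltf), an iron-binding granule protein, read 62.4 in Bmi1ΔIEC and 32.1 in Mel18ΔIEC against 384 in WT and 289 in DKO, and the receptor Clec4d differed by -2.63. Wild type and double knockout were nearly equal for both calprotectin genes, -0.06 and -0.14 apart on the log2 scale.

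Of 6 mast cell genes, 4 were lower and 1 higher. Mcpt2 read 1446 in WT, 149.6 in Bmi1ΔIEC, 234 in Mel18ΔIEC and 1243 in DKO and Mcpt1 read 755 in WT, 111 in Bmi1ΔIEC, 199.6 in Mel18ΔIEC and 836 in DKO, both proteases of mucosal mast cells, and carboxypeptidase Cpa3 differed by -2.01. Mcpt4 was the last of them (-1.16, and -0.88 without wild type). Kit, the stem cell factor receptor that mast cells share with other cells, was the higher gene at 73.8 in WT, 259 in Bmi1ΔIEC, 189.6 in Mel18ΔIEC and 89.9 in DKO, a difference of 1.44 that was 0.76 with the mean over its probe sets and no longer called. Macrophage and dendritic cell genes had 7 of 21 lower and none higher. Separate pairs in the lower direction were seen for 20 of them, and for 23.1% of all genes at or above the floor. Tyrobp, a signalling adaptor of myeloid cells, read 135 in Bmi1ΔIEC and 171 in Mel18ΔIEC against 544 in WT and 707 in DKO, a difference of -2.03. The fungal receptor Clec7a differed by -1.78, and the Fc receptor genes Fcer1g and Fcgr3 by -1.64 and -1.60. This list's median was -0.79.

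Of 15 T and NK cell genes, 6 were lower and none higher. Granzyme Gzma of cytotoxic lymphocytes read 203 in WT, 100.4 in Bmi1ΔIEC, 68.97 in Mel18ΔIEC and 683 in DKO, and granzyme Gzmb read 154 in WT, 79.5 in Bmi1ΔIEC, 47.8 in Mel18ΔIEC and 312 in DKO. Itgae, the integrin that holds lymphocytes in the epithelium, differed by -1.56. Both granzymes read highest on the double-knockout array. The list's median was -0.93, and it was -0.45 without the double-knockout array and -0.52 without the Mel18-labelled array. None of the B and plasma cell (8), endothelial (9), smooth muscle (14) and fibroblast genes (26) at or above the floor was called. The fibroblast median of -0.65 went with low readings on the Bmi1-labelled array, as for Col3a1 at 1417 in WT, 392 in Bmi1ΔIEC, 1779 in Mel18ΔIEC and 2528 in DKO. It was -0.19 without that array, and -1.04 with 14 genes called lower without the Mel18-labelled one.

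**Figure D3:**
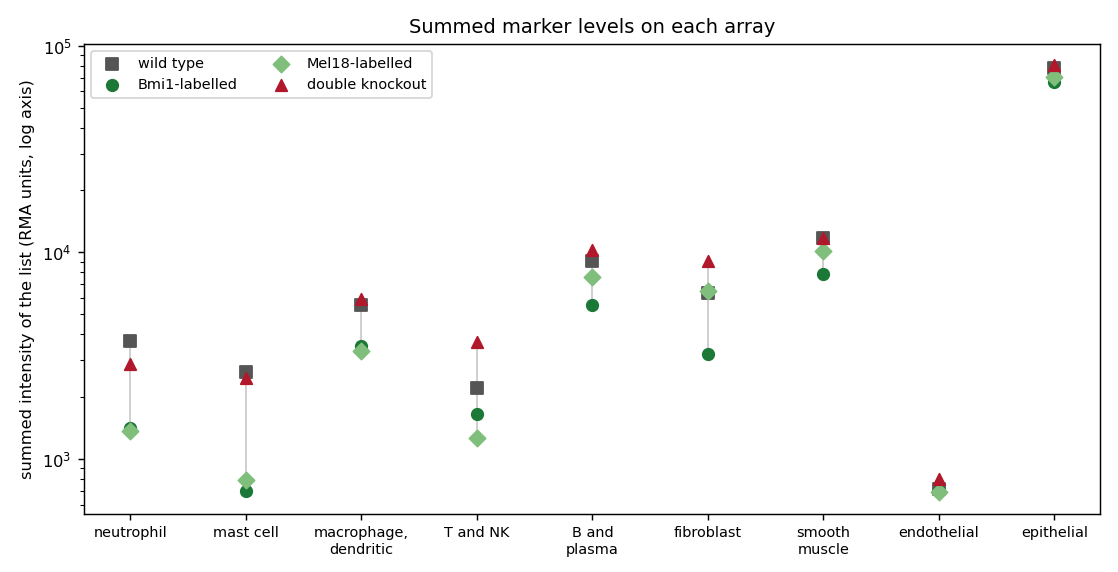
Summed intensity of each cell-type marker list on each array, on a log axis; every symbol is 1 array. Neutrophil, mast cell and macrophage sums were lower on both single-knockout arrays than on the other pair (neutrophil 1412 and 1369.9 against 3734 and 2891), the fibroblast sum was low on the Bmi1-labelled array only (3219), and epithelial sums ran from 66693 to 80210.4.

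Summed over whole lists, mast cell genes reached 702 and 789 intensity units on the Bmi1ΔIEC and Mel18ΔIEC arrays against 2626 and 2452 on the wild-type and double-knockout arrays. Macrophage genes summed to 3497 and 3315 against 5547 and 5936, and T and NK cell genes to 1653 and 1256 against 2209 and 3664. CXC chemokine genes, likewise lower, summed to 1333 and 1105 against 3213 and 2593, and antiviral genes to 12792 and 10269 against 21202 and 19573. Only the sum of the CC chemokine genes went the other way, at 8012 and 7948 against 6050 and 7563. The median pair difference of that list was -0.49, with separate pairs lower for 6 members and higher for 2. The acute-phase sum was lowest on the double-knockout array, at 11158 and 12151 against 15196 and 10024. The part of the immune cell markers in the differences above was not tested.

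Of 24 genes of EGFR signalling and epithelial injury, 7 were lower and 1 higher, with a median of -0.54. Without the double-knockout array 4 were lower and the median was -0.23. Sprr2d, a cornified envelope protein that is induced in stressed gut, read 33.9 in Bmi1ΔIEC and 28.6 in Mel18ΔIEC against 241 in WT and 317 in DKO, and Sprr1a differed by -2.47 and Sprr2h by -2.48, the latter by -1.28 without wild type. Krt6b, a wound keratin outside this list, read 15.3 in Bmi1ΔIEC and 18.8 in Mel18ΔIEC against 156 in WT and 163 in DKO. The EGFR ligand Ereg was lower at -1.72, or -1.07 without the double-knockout array. The exception in this list was Tgm3, a transglutaminase, which was higher on both single-knockout arrays, at 3174 in WT, 6581 in Bmi1ΔIEC, 6487 in Mel18ΔIEC and 498 in DKO.

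Plet1, a surface protein of repairing colon epithelium, read 2414 in WT, 57.2 in Bmi1ΔIEC, 77.00 in Mel18ΔIEC and 247 in DKO, a difference of -3.54. It was -1.89 without wild type and -0.38, not called, when probe sets shared between transcripts were left out. Slpi, a protease inhibitor of mucosal secretions, read 9492 in WT, 1473 in Bmi1ΔIEC, 2388 in Mel18ΔIEC and 13527 in DKO. Retnlb, an antibacterial goblet cell product, read 2665 in WT, 116 in Bmi1ΔIEC, 298 in Mel18ΔIEC and 716 in DKO, and the tryptase Prss22 read 19.5 in Bmi1ΔIEC and 24.1 in Mel18ΔIEC against 271 in WT and 167 in DKO. With these, 5 of 13 genes of secreted antimicrobials and mucosal defence outside the Reg family were lower. The defensin Defb45 (2.04) and the ribonuclease Ang4 (1.58) were higher, and both calls rest on the double-knockout array, without which the differences were 0.69 and 0.43. Lactoperoxidase (Lpo), which makes bactericidal oxidants, read 60.4 in Bmi1ΔIEC and 70.4 in Mel18ΔIEC against 1384 in WT and 603 in DKO and differed by -3.81, the lowest of 10 oxidase and peroxidase genes. Duoxa2, the maturation factor of dual oxidase, was barely past the threshold and lay at -0.63 without wild type.

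The CLCA genes Clca4b, Clca4a and the pseudogene Clca4c-ps, which are neighbours and similar enough to share signal, were all lower. Clca4b read 7839.6 in WT, 274 in Bmi1ΔIEC, 784 in Mel18ΔIEC and 5849 in DKO and Clca4a read 4446 in WT, 498 in Bmi1ΔIEC, 1281 in Mel18ΔIEC and 2028 in DKO. Clca4c-ps differed by -2.72, and without wild type its difference was -1.75 with every reading under the floor. No other CLCA gene among the 7 at or above the floor passed. Among junction genes, Cldn4, a sealing claudin, read 143 in Bmi1ΔIEC and 194 in Mel18ΔIEC against 671 in WT and 732 in DKO and differed by -2.07. Cldn2 and Cldn15, which form cation pores, were higher by 1.48 and 1.42, and Cldn14 by 1.15. Cldn2 stood at 0.89 and Cldn14 at 0.98 without the double-knockout array, so neither held its call there. Of the cell death genes, the necroptosis kinase Ripk3 read 108 in Bmi1ΔIEC and 124 in Mel18ΔIEC against 382 in WT and 461 in DKO (-1.86), and the pro-apoptotic BH3 genes Bmf and Bik were higher by 1.23 and 1.17. The Bmf difference reversed to -0.089 when probe sets shared between transcripts are left out, and Bik stood at 0.66 without the double-knockout array.

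**Figure D4:**
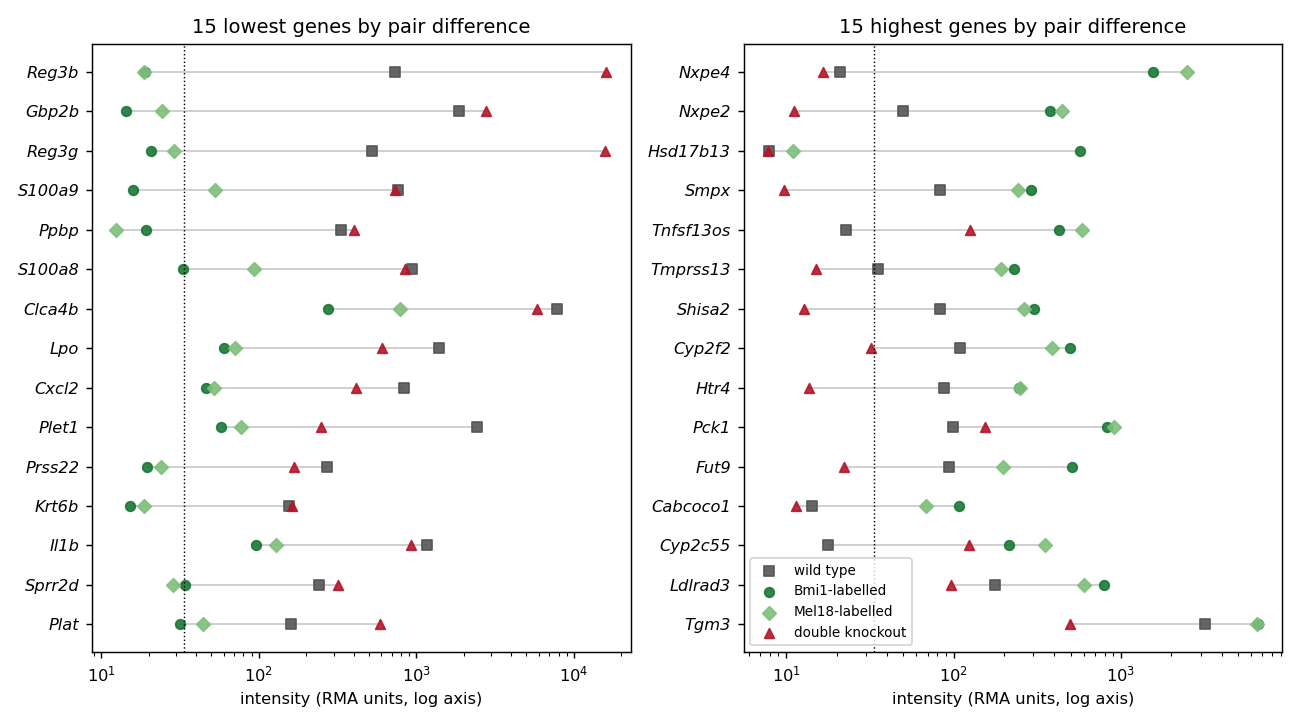
Intensity of the 15 lowest and 15 highest called genes on each of the 4 arrays, on a log axis; the dotted line is the floor of 33.4 units. On the left the green single-knockout symbols lie below the grey wild-type and red double-knockout symbols, and on the right above them. Hsd17b13 is high on the Bmi1-labelled array only.

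On the higher side the largest difference was that of Nxpe4, a gene of intestinal epithelium named for neurexophilin and esterase domains. It read 21.1 in WT, 1561 in Bmi1ΔIEC, 2496 in Mel18ΔIEC and 16.6 in DKO. Its neighbour Nxpe2 read 50.1 in WT, 376 in Bmi1ΔIEC, 445 in Mel18ΔIEC and 11.1 in DKO. Outside the single-knockout arrays neither read above 50.1, and they had pair differences of 6.72 and 4.11, and against the floor Nxpe4 was higher by 59.2-fold. Pck1, the rate-controlling enzyme of gluconeogenesis, read 98.7 in WT, 821 in Bmi1ΔIEC, 908 in Mel18ΔIEC and 153 in DKO, a difference of 2.81, which was 1.16 with the mean over all its probe sets. For Tnfsf13os, an antisense gene at Tnfsf13, the values were 427 in Bmi1ΔIEC and 588 in Mel18ΔIEC against 22.9 in WT and 126 in DKO, a difference of 3.22, or 1.63 with that mean.

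Several of the highest genes were lowest on the double-knockout array, with wild type between. Smpx, a small muscle protein, read 82.5 in WT, 291 in Bmi1ΔIEC, 242 in Mel18ΔIEC and 9.67 in DKO. The membrane protease Tmprss13 read 35.6 in WT, 229 in Bmi1ΔIEC, 193 in Mel18ΔIEC and 15.1 in DKO, and Htr4, a serotonin receptor, read 88.1 in WT, 245 in Bmi1ΔIEC, 249.7 in Mel18ΔIEC and 13.7 in DKO. Shisa2, a modulator of WNT and FGF receptors, and Fut9, a fucosyltransferase that makes Lewis x sugars, had the same order, with pair differences of 3.12 and 2.79. Their calls held without the double-knockout array, at 1.68 for Smpx, 2.56 for Tmprss13, 1.49 for Htr4, 1.77 for Shisa2 and 1.74 for Fut9. Hsd17b13, a lipid droplet enzyme with the third largest difference (3.34), was high on the Bmi1-labelled array only (7.86 in WT, 573 in Bmi1ΔIEC, 10.95 in Mel18ΔIEC and 7.81 in DKO), and without that array its difference was 0.48.

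Of 14 cytochrome P450 genes, 5 were higher and none lower. Cyp2c55, a colonic P450, read 17.8 in WT, 213 in Bmi1ΔIEC, 353 in Mel18ΔIEC and 124 in DKO. Cyp2f2 read 109.9 in WT, 498 in Bmi1ΔIEC, 387 in Mel18ΔIEC and 32.1 in DKO and Cyp2c68 read 519 in WT, 1826 in Bmi1ΔIEC, 1529.7 in Mel18ΔIEC and 206 in DKO, with Cyp2s1 at 1.37. The median of the list was 0.11, equal to that of all genes. After centring on above-floor genes that median was -0.10. The P450 values may share signal within a subfamily.

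Conjugating enzymes and esterases had 8 of 32 members higher, none lower, and a median of 0.58 (0.46 to 0.65 with single arrays left out). None of them had its closest arrays 2-fold apart. The carboxylesterase Ces1d read 74.5 in WT, 315 in Bmi1ΔIEC, 102 in Mel18ΔIEC and 22.5 in DKO. Dpyd, which degrades pyrimidines, read 26.8 in WT, 211 in Bmi1ΔIEC, 158 in Mel18ΔIEC and 79.3 in DKO, and the glucuronosyltransferase Ugt2b35 differed by 1.72. Gstm1, a glutathione transferase, read 1539 in WT, 2915 in Bmi1ΔIEC, 2248 in Mel18ΔIEC and 380.2 in DKO, and its call was lost without the double-knockout array (0.73). Steroid enzymes and nuclear receptors had 5 of 22 higher and none lower, with a median of 0.42. The median was 0.26 without the Bmi1-labelled array and 0.21 after centring on above-floor genes, and 1 of the 5 is Hsd17b13, high on the Bmi1-labelled array only. Hsd3b3, a 3-beta-hydroxysteroid dehydrogenase, read 327 in Bmi1ΔIEC and 352 in Mel18ΔIEC against 55.8 in WT and 103 in DKO, and its relative Hsd3b2 differed by 1.82. Cyp11a1, which starts steroid synthesis from cholesterol and is used by intestinal epithelium to make glucocorticoid, differed by 1.74. In the list of 25 genes of fatty acid oxidation and its regulation only Pck1, the gluconeogenesis enzyme named above, was called. Separate pairs in the higher direction were seen for 15 members, and for 41.2% of all genes at or above the floor. The median of this list was 0.44, and 0.16 without wild type.

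Transport genes of colonocytes split. Slc5a8 and Slc16a1, both carriers of short-chain fatty acids, were higher, Slc5a8 reading 1282 in WT, 2498 in Bmi1ΔIEC, 2458 in Mel18ΔIEC and 287 in DKO and Slc16a1 reading 2506 in Bmi1ΔIEC and 2763 in Mel18ΔIEC against 1109.7 in WT and 1011 in DKO. The anion channel Best2 (1.34) and the water channel Aqp8 (1.15) were higher as well, while Krt20 and the carbonic anhydrase Car1 (-1.06) were lower, so 4 of 27 colonocyte genes were higher and 2 lower. Only Slc16a1 kept its call whichever array was left out. Without the double-knockout array Slc5a8 stood at 0.95, Best2 at 0.91, Aqp8 at 0.44 and Car1 at -0.34, and Krt20 stood at -0.94 without the Bmi1-labelled array. Amino acid transporters Slc6a14 (1.30) and Slc6a20a (1.28) were higher, the former at 0.52 without the double-knockout array and the latter at 0.64 without wild type. Arg1, which splits arginine and is also made by alternatively activated macrophages, was lower at 12.7 in Bmi1ΔIEC and 9.17 in Mel18ΔIEC against 84.7 in WT and 91.7 in DKO.

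Of 17 genes of crypt stem cells, 6 were higher on both single-knockout arrays and none lower. Smoc2, a matrix protein of the stem cell zone, read 42.03 in WT, 188 in Bmi1ΔIEC, 94.9 in Mel18ΔIEC and 20.2 in DKO. Lgr5, the R-spondin receptor that marks crypt base stem cells, read 21.7 in WT, 93.6 in Bmi1ΔIEC, 35.1 in Mel18ΔIEC and 18.8 in DKO. Ascl2, the transcription factor of those cells, read 44.8 in WT, 130.4 in Bmi1ΔIEC, 69.2 in Mel18ΔIEC and 28.7 in DKO, and Cdca7 differed by 1.46. All 4 read highest on the Bmi1-labelled array. The list's median was 0.60, or 0.39 after centring on above-floor genes. These calls depend on single arrays and on the probe set read. With probe sets averaged by gene 1 of 13 was higher, and Lgr5, Ascl2 and Cdca7 lost their calls, while 1 gene had its closest arrays 2-fold apart. Without the double-knockout array 3 were higher. Lgr5 stood at 0.80 and Ascl2 at 0.95 without the Bmi1-labelled array, Cdca7 at 0.56 without the double-knockout array, and Smoc2 kept its call whichever array was left out, with a lowest difference of 1.70.

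**Figure D5:**
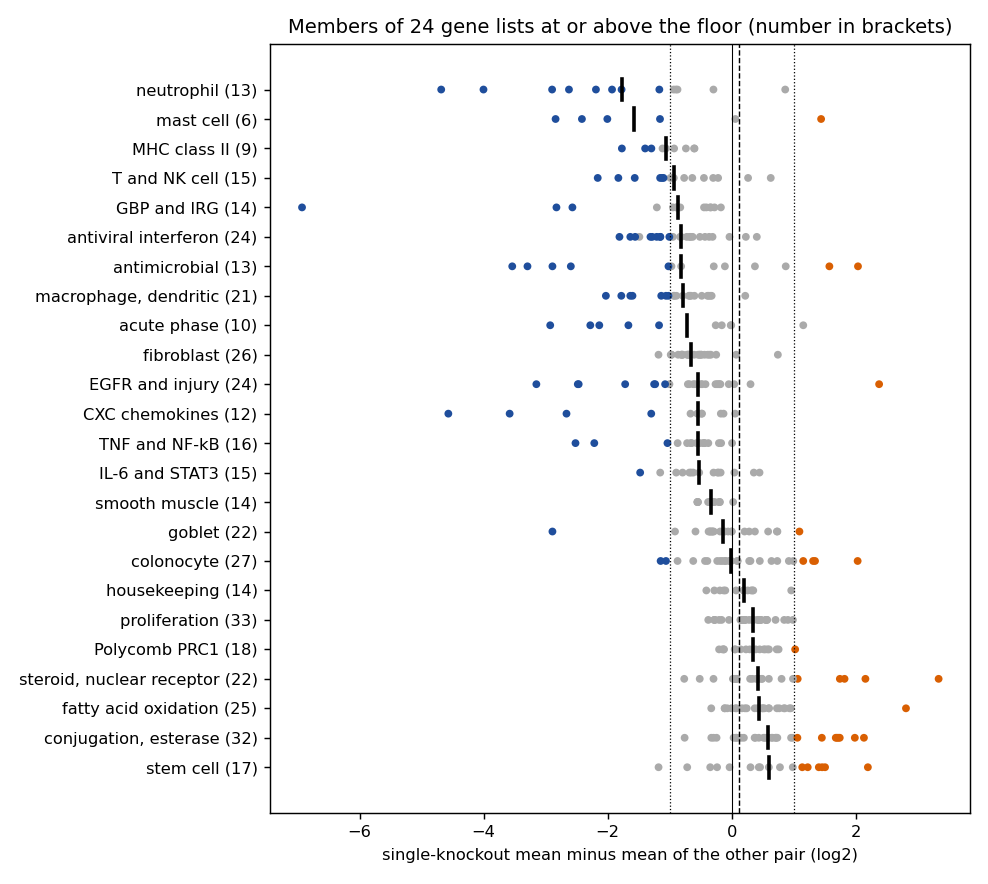
Pair difference of every member at or above the floor in 24 gene lists, on the log2 scale; blue and orange points are genes called lower and higher, and thick bars are list medians. The dashed line marks the median of all genes at or above the floor (0.11) and the dotted lines a 2-fold difference. Neutrophil, mast cell and MHC class II lists have the lowest medians, and the stem cell and conjugation lists the highest.

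Few Polycomb genes passed the size rule. Of 18 subunits of Polycomb repressive complex 1 only Pcgf1, another PCGF paralog, passed, at 69.4 in Bmi1ΔIEC and 57.8 in Mel18ΔIEC against 30.2 in WT and 32.2 in DKO and a difference of 1.02, and it did not pass without wild type (0.98) or without the Bmi1-labelled array (0.89). None of 11 subunits of complex 2 passed, with Ezh2, the methyltransferase, at 0.54 and Phf1 at -0.44. Of 17 Hox genes Hoxd10 was higher (125 in WT, 197 in Bmi1ΔIEC, 199.8 in Mel18ΔIEC and 39.9 in DKO), and its difference was 0.67 without the double-knockout array. Cdkn2a, the classical Polycomb target that encodes p16 and Arf, read 10.6 in WT, 11.9 in Bmi1ΔIEC, 11.7 in Mel18ΔIEC and 662 in DKO. Its difference of -2.83 arises from the double-knockout array alone, the pairs overlap, and it was not called. The medians of complex 1, complex 2 and Hox genes were 0.34, 0.14 and 0.19, and after centring on above-floor genes they were 0.13, -0.06 and -0.05.

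Among proliferation genes none of 33 was called, and the median of 0.34 turned to -0.29 without the double-knockout array and was 0.94, with 11 genes called higher, without wild type. Dut, which guards the nucleotide pool, had the highest difference (0.99) and Rrm2 the lowest (-0.38), reading 396 in WT, 175 in Bmi1ΔIEC, 119 in Mel18ΔIEC and 89.1 in DKO. Housekeeping genes had a median of 0.19 with none of 14 called, and cholesterol synthesis genes -0.26 with none of 20 called, a median that was 0.02 without wild type. After centring on above-floor genes the housekeeping median was -0.01.

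Other epithelial lists held few calls. Goblet cell genes had Retnlb lower and Creb3l4, a membrane-bound transcription factor, higher (1.09) out of 22. Enteroendocrine genes had Tac1, the substance P precursor, lower at 1298 in WT, 227 in Bmi1ΔIEC, 671 in Mel18ΔIEC and 3064 in DKO, and Chgb, a granule protein, lower (-1.04), out of 18. Chgb stood at -0.55 without the double-knockout array. Of 25 genes of the unfolded protein response only Chac1, which degrades glutathione, was called, at 26.3 in Bmi1ΔIEC and 29.6 in Mel18ΔIEC against 113 in WT and 210.2 in DKO (-2.46). Of 10 metal-handling genes, the metallothionein Mt4 (-1.23) and the zinc exporter Slc30a2 (-1.05) were lower and the importer Slc39a8 was higher (1.14). The carriers stood at -0.51 and 0.74 without the double-knockout array. Pla2g4a, which releases arachidonic acid, was higher at 1.26 although Ptgs2, the next enzyme, was lower.

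The genes in which both pairs were tight included many with no place in the lists. Zbtb44, a zinc finger protein, read 265 in Bmi1ΔIEC and 262 in Mel18ΔIEC against 83.9 in WT and 83.4 in DKO, a difference of 1.66 with 0.02 and -0.01 inside the pairs. With the mean over all its probe sets Zbtb44 differed by 0.75 and was not called. The histone H2B gene H2bc21 read 141 in Bmi1ΔIEC and 140.4 in Mel18ΔIEC against 31.96 in WT and 31.7 in DKO, Hdac11, a histone deacetylase, read 227 in Bmi1ΔIEC and 264 in Mel18ΔIEC against 52.1 in WT and 55.6 in DKO, and Snhg4, a host of small nucleolar RNA, read 549 in Bmi1ΔIEC and 525 in Mel18ΔIEC against 171 in WT and 164 in DKO. Lower and tight were Srgn, the proteoglycan of leukocyte granules, at 481 in Bmi1ΔIEC and 417 in Mel18ΔIEC against 2459 in WT and 2481 in DKO, and the lysophospholipid carrier Mfsd2a, at 47.9 in Bmi1ΔIEC and 50.7 in Mel18ΔIEC against 313 in WT and 312 in DKO. Tgm2, tissue transglutaminase, read 362 in Bmi1ΔIEC and 371 in Mel18ΔIEC against 1594 in WT and 1409 in DKO, and G0s2, an inhibitor of lipolysis, differed by -2.53. The closest arrays of the pairs were 3.12-fold apart for Zbtb44, 4.39-fold for H2bc21, 5.11-fold for Srgn and 6.16-fold for Mfsd2a.

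At the other extreme, some called genes owe their pair difference to 1 array. Sptssb, a subunit of the enzyme that starts sphingolipid synthesis, read 21.04 in WT, 10.8 in Bmi1ΔIEC, 17.1 in Mel18ΔIEC and 234 in DKO, and Prap1, a proline-rich secreted protein of gut epithelium, read 39.6 in WT, 26.5 in Bmi1ΔIEC, 22.9 in Mel18ΔIEC and 329.7 in DKO. Both are at or under the floor on the single-knockout arrays and near it in wild type, and without the double-knockout array they differed by -0.63 and -0.69. Dgat1, which makes triglyceride, was lower with a difference of -1.02, which was -0.09 without that array. Gata4, a transcription factor of the small intestine, was lower with a difference of -1.09, or -0.08 without it.

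Other readings of the same genes were compared with the calls. Of the 447 higher genes, 150 had further probe sets at or above the floor, 212 in all, of which 191 had the same sign and 91 were called in the same direction. Of the 274 lower genes, 81 had 130 further probe sets, of which 125 had the same sign and 54 were called. None was called in the opposite direction. Of the genes described above, Hsd17b13, Il1r1, H2-Ab1, Gata4, Dpyd, Cyp11a1, Bmf and Slc39a8 also lost their calls with the mean over all probe sets. Ascl2, Dpyd, Bik and Xist lost theirs without probe sets shared between transcripts. Counted by probe set with 1 symbol, 713 of 20123 at or above the floor were higher (3.54%) and 473 lower (2.35%). Among probe sets with no single symbol, which name no gene here, 69 of 3512 at or above the floor were higher (1.96%) and 308 lower (8.77%).

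Called genes that are direct neighbours among the genes at or above the floor formed short runs. In the order of GRCm38.p6, 56 of 445 placed higher genes (12.6%) and 60 of 274 lower genes (21.9%) stood next to another gene called in the same direction. Of all genes at or above the floor 3.77% were called higher and 2.31% lower. Each gene can have a neighbour on either side, and the share that placement alone would give was not computed. The longest run was that of Mcpt-ps1, Mcpt1, Mcpt2, Mcpt4 and Gzmb, 5 lower genes, and the next that of Gstm6, Gstm3, Gstm2 and Gstm1, 4 higher genes. Clec4n, Clec4d and Clec4e were lower together, as were Cxcl5 and Ppbp, and Hsd3b2, Hsd3b3 and Hao2 were higher together. These runs were picked out after their values were seen, and members of such families can share probe signal.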

How the data were processed

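The members of this comparison and the 56 gene lists were chosen with earlier results of these data known. The authors deposited 1 intensity per probe set, and per the submitters' processing notes RMA in Affymetrix Expression Console was used, with no version named. The deposited values are linear (3.25 to 22803), although RMA usually reports log2, so log2 was taken with no pseudocount or further scaling. RMA puts all arrays on a common distribution, which can shift differences where many genes move one way. Symbols came from the platform annotation (932 probe sets had several symbols, 9160 were unlisted) and were updated through the RefSeq gene table of GRCm38.p6 (34741 probe sets matched). A gene was read from its brightest probe set. With 1 array per genotype no test was possible. The size rule was 2-fold between pair means, pairs not overlapping, higher pair mean at or above the median of all values. Genes named were taken from the 15 highest and 15 lowest, those with the tightest and widest pairs and those lowest or highest on the double-knockout array. Further sources were up to 4 called members per list and direction (the extreme members where none was called), the targeted genes, the defining markers and the sex-linked genes. Not every gene of these groups is named, and clone names were not named. Reg4 and genes of the neighbour runs are named besides. Promoters matched 562 of the 721 called genes. Each result was recomputed under 15 alternatives covering probe sets, floor, scaling, size rule and leaving out each array. Python 3.11.15, numpy 2.4.6, pandas 2.3.3 and matplotlib 3.10.9 were used. The number of arrays limits the precision.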

Additional observations from a re-analysis of the deposited data

Results flagged for a closer look

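The 447 genes higher and the 274 genes lower on both single-knockout arrays stand out because the effect of each loss has opposite signs on the 2 backgrounds. For a higher gene, Bmi1 loss reads upward from wild type and downward from the Mel18-labelled array, and Mel18 loss reads upward from wild type and downward from the Bmi1-labelled array; for a lower gene these directions are turned. This follows from the rule that the pairs do not overlap, and with 1 array per genotype the difference was not tested.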

How the results depend on the processing

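Against 447 higher and 274 lower genes, centring on above-floor genes gave 221 and 473, a 1.5-fold rule 1621 and 716, and requiring the closest arrays to be 2-fold apart 125 and 106. Leaving out single arrays gave 353 to 695 higher (695 without Mel18ΔIEC) and 281 to 444 lower genes (444 without WT). The other alternatives kept both counts within 1.5 times: the mean over all probe sets, leaving out probe sets of the _x_at, _s_at and _a_at types, no floor, a floor at percentile 75, centring on array medians, quantile normalization, linear pair means and allowing the pairs to overlap. All 3 scalings called 221 of the higher and 223 of the lower genes. One named gene reversed, Bmf, with a difference of -0.089 without _x_at, _s_at and _a_at probe sets; the cause was not tested. No paired analysis was possible because each genotype has 1 array. Readings under 33.4 units lie in the lower part of all signals, so differences that involve them, as for 91 higher and 64 lower genes, have no exact size.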
